A study of Homo sapiens with 6 samples.

Results

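Replication-dependent histone genes encode the bulk of the H1, H2A, H2B, H3 and H4 proteins that package newly copied DNA. They were taken as every row of the deposited table whose gene symbol belongs to the H1-1 to H1-6, H2AC, H2BC, H3C or H4C series or is H4-16. The rule found 67 of the 61806 genes in the table: 6 H1, 16 H2A, 17 H2B, 13 H3 and 15 H4 genes. RNA had been sequenced from HFF cells, a wild-type human foreskin fibroblast culture from a cell bank. Every culture was irradiated with UVB, the ultraviolet B part of sunlight that DNA absorbs directly, at 40 mJ per cm2. The UVB + sauchinone group (3 libraries) was treated with 10 µM sauchinone, a plant lignan, and the UVB group (3 libraries) with vehicle. Both groups were collected 48 h after irradiation. All 6 libraries carry the same batch label, and unirradiated cells were not analysed here.

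Transcription of these genes is switched on as cells enter S phase by NPAT in nuclear bodies at the gene clusters. Their mRNAs are unusual in that most end in a short stem-loop in place of a poly(A) tail, which SLBP binds to direct cleavage, translation and, when replication stops, decay. Several members also give longer, polyadenylated transcripts in cells that have left the cycle. Per the labels' protocols, RNA was enriched either with oligo(dT) beads or by removing ribosomal RNA, and which was used for these libraries is not stated. Poly(A) selection depletes the stem-loop form, so the levels below are those of whichever forms the libraries retained. The labels describe versions of the experiment with sauchinone added after or before irradiation, and do not say which version these libraries came from.

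The total count per library lay between 20984851 and 23076388, and 3 counts in a library corresponded to 0.128 to 0.144 CPM, a floor that covers counting error only (CPM, counts scaled to a common library size with TMM, a method that evens out differences in library composition). Spearman correlations between libraries were 0.991 to 0.994 within a group and 0.964 to 0.975 across groups. The labels give no separate cultures for the 3 libraries of a group, so p-values measure the spread between these libraries, which may be technical. All 10 fibroblast markers were detected, with summed levels of 13600 to 13900 CPM in UVB + sauchinone and 19300 to 21100 CPM in UVB. Summed markers of keratinocytes were 13.9 to 15.6 CPM in UVB + sauchinone and 12.6 to 14.2 CPM in UVB, with KRT5, KRT1 and DSG3 at 0 in every library. Those of leukocytes were 3.26 to 3.54 and 2.89 to 3.61 CPM (CD3E at 0), those of melanocytes 1.34 to 1.63 and 1.81 to 2.55 CPM (DCT at 0), and those of endothelial cells 2.33 to 3.30 and 6.67 to 7.99 CPM (KDR and CDH5 at 0), each in UVB + sauchinone and in UVB. Mitochondrial genes took 4.30 to 4.74% of counts in UVB + sauchinone and 3.73 to 3.92% in UVB. The part of these differences in the histone values was not tested.

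The stem-loop is the feature that sets these mRNAs apart, and it was looked for in the GENCODE 29 transcripts of GRCh38, on the transcript strand, as a stem of 6 bases per side, with pyrimidines facing purines, around a loop of 4 bases. All 67 members had a transcript there, 63 by gene ID and 4 by an older symbol. A stem-loop was found in 43 of the 96 member transcripts, from 29 members, and in 1.15% of 206598 other transcripts. Within the last 100 bases, where the stem-loop form of the mRNA ends, it was in 11 of the 96 member transcripts and 0.0561% of the others. The 6 sequences found differed in 1 pair of the stem or in the loop: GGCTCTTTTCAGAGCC occurred in 15 members, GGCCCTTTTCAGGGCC in 5, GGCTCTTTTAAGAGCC in 4 and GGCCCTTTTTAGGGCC in 3. The remaining forms belonged to 1 member each. One transcript sequence is shown for each of 5 forms, chosen to span the core histone classes, with 5 flanking bases on each side and the paired stem bases in capitals, 5′ to 3′.
H2AC8: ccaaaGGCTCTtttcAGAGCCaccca
H2BC5: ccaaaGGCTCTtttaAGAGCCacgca
H3C6: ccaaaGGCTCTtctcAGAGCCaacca
H4C8: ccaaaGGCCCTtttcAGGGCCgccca
H4C14: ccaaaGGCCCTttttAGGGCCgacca

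For 20 members, an annotated transcript ran on for more than 200 bases past the stem-loop, and 16 of these transcripts' genes also had AATAAA, the usual poly(A) signal, in the last 40 bases. H2BC21 was annotated with 1729 bases after its stem-loop, H2BC8 with 1059 and H2AC6 with 1114 to 1128. H4C8 had transcripts that ended 18 and up to 1655 bases after it. The gene models that were counted were not always these. The deposited exonic size was 489 bases for H2BC8, against 1534 for its longest transcript here, and 462 against 2060 for H2BC9. H2AC11, H2BC7 and H4C5 were likewise counted on shorter models. The counts of such genes do not cover the annotated extension. For H2BC21 and H2AC6 the exonic sizes of 2224 and 1668 bases were close to the transcripts' 2194 and 1668. The absence of a match in a member says only that its annotated transcripts do not hold these letters.

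Promoters were read from RefSeq for 61 of the 67 members on GRCh38.p14, as the 250 bases upstream of the start. The TATA box letters TATAAA, on either strand, were in 67.2% of member promoters and in 10.7% of all 35116 promoters. CCAAT was in 85.2% of member promoters and 32.0% of all. The octamer ATTTGCAT, the binding sequence of POU2F1, was in 42.6% and 1.63%. These motifs followed class: the octamer was in 14 of 17 H2B and 11 of 15 H2A promoters, in 1 of 11 H3 promoters and in no H1 or H4 promoter, while CCAAT was in every H1, H2A, H2B and H3 promoter and in 3 of 12 H4 promoters. The 200 bases upstream of 3 H2B genes that rose with sauchinone are given next, all on the minus strand and written 5′ to 3′ in the direction of transcription, with TATAAA, the octamer and CCAAT, in either orientation, in capitals.
H2BC11, chr6:27132796-27132995: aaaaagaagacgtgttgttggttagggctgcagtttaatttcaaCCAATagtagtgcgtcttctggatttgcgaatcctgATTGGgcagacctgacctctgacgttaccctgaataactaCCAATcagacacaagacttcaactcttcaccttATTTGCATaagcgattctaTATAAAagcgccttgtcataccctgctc
H2BC8, chr6:26216689-26216888: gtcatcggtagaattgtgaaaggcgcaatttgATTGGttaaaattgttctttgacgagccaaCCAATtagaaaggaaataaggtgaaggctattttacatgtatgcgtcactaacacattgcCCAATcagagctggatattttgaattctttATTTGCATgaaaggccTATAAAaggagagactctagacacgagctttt
H2BC21, chr1:149886683-149886882: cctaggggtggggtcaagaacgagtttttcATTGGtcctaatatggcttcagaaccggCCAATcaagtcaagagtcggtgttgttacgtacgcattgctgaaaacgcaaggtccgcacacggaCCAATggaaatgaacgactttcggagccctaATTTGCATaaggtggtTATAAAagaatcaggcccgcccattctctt

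In all 3 the octamer sits just upstream of TATAAA, and the CCAAT boxes lie further from the start. A motif match describes the letters of the window only. Promoters with the octamer made up 42.9% of those of members that rose, 57.1% of those tested and not called, and 39.4% of those too low to test.

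Histone RNA made up a larger share of the libraries from irradiated cells given sauchinone than of those from irradiated cells given vehicle. The summed level of the 67 members was 519.6, 579.3 and 553.7 CPM in the UVB + sauchinone libraries, against 368.4, 365.9 and 333.4 CPM in the UVB libraries, a ratio of 1.55. The members took 0.0531, 0.0581 and 0.0564% of all counts in UVB + sauchinone, against 0.0365, 0.0358 and 0.0327% in UVB. These totals rest on few genes, since H1-2, H2AC6, H2BC21 and H2BC12 supplied 68.9% of all member counts. In bulk RNA, a change in the number of cells making a transcript and a change in the amount per cell cannot be told apart.

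Of the 67 members, 30 had enough counts to be tested with edgeR's quasi-likelihood test across all 15704 genes that passed the same filter. At a Benjamini-Hochberg adjusted p under 0.05, 22 were higher with sauchinone, none was lower and 8 were not called. Over all tested genes, 24.7% were called higher and 24.9% lower. The median log2 fold change was 0.90 for the 30 tested members and 0.01 for all tested genes. All 30 estimates were above 0, and 13 of the called members were at least 2-fold higher. No member was lower at an unadjusted p under 0.05 in edgeR, and none was lower in DESeq2 at an adjusted or unadjusted p under 0.05. In 26 tested members every UVB + sauchinone library lay above every UVB library, a pattern seen in 28.6% of all tested genes. The 4 whose groups overlapped were H2AC6, H2AC15, H2BC7 and H3C6, none of them called. The filter keeps genes that reach enough counts in either group, so a member that passed through its sauchinone libraries alone had to differ. The counts among tested members are therefore a description. Such called members were H1-4, H2AC17, H2BC6, H2BC9, H2BC18, H3C2 and H4C3, each at least 2-fold higher and under 10 counts in some UVB library. When at least 10 counts were asked of every library, they were not tested. In that fit 16 of 21 members were called higher (median log2 fold change 0.76), against 3684 of 13982 genes.

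**Figure D1:**
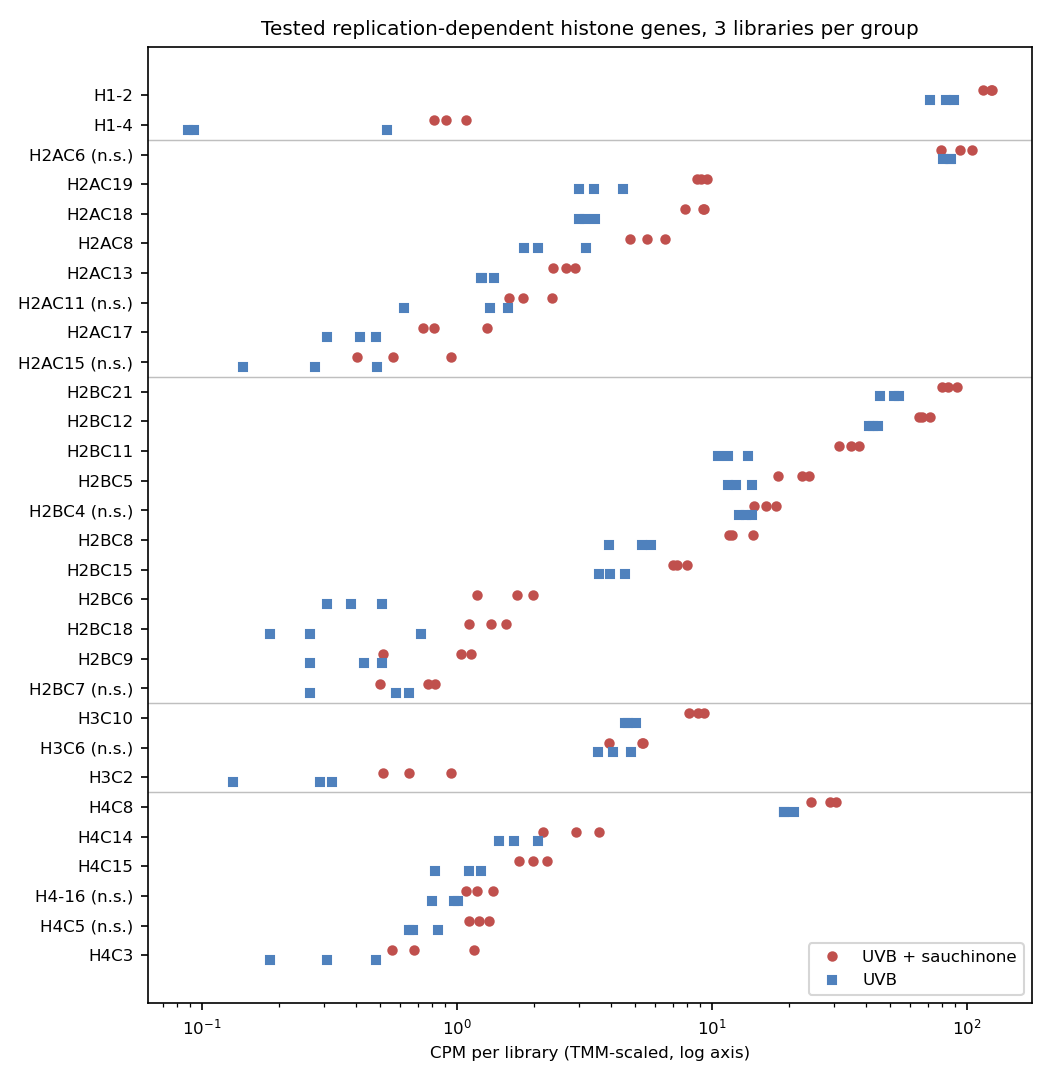
Level of each tested member in each library (CPM, log axis), with UVB + sauchinone and UVB libraries as separate points and n.s. marking members not called. The groups separate for 26 of the 30 members and overlap for H2AC6, H2AC15, H2BC7 and H3C6.

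Linker histone H1, which binds DNA where it enters and leaves the nucleosome, was represented almost entirely by H1-2. On the deposited per-length scale (FPKM, fragments per kilobase of exon, scaled to library size) H1-2 was also the member with the highest mean level, at 169 ± 9.29 FPKM in UVB + sauchinone and 109 ± 11.6 FPKM in UVB (SD, n = 3 each). H1-2 (ENSG00000187837, chr6:26055740-26056470, minus strand, GRCh38) had 124.5, 115.2 and 125.1 CPM in UVB + sauchinone, against 82.5, 88.5 and 71.4 CPM in UVB. The groups did not overlap, and the log2 fold change was 0.59 ± 0.09 (SE; edgeR adjusted p = 5.6e-06).

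H1-4, a close relative of H1-2, was scarce: it had 20, 25 and 19 counts in UVB + sauchinone, against 11, 2 and 2 counts in UVB. The estimate on the log2 scale was 1.98 ± 0.55 (SE; edgeR adjusted p = 0.0044), and UVB replicate 1 stood well above the other UVB libraries. Without that library it was 3.29 (edgeR adjusted p = 0.00027). The other 4 H1 genes were too low to test.

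H2A pairs with H2B on the outside of the nucleosome core. Among H2A genes, 5 of the 8 tested were higher (median log2 fold change 1.14), against 24.7% over all tested genes. The most abundant of them was not called: H2AC6 had the highest mean FPKM of the class, at 56.4 ± 7.25 FPKM in UVB + sauchinone and 49.6 ± 2.07 FPKM in UVB (SD, n = 3 each), and its CPM was 79.4, 104.8 and 94.1 in UVB + sauchinone, against 85.4, 86.9 and 80.2 in UVB. The groups overlapped, and the log2 fold change of 0.14 ± 0.09 (SE) missed the threshold (edgeR adjusted p = 0.21).

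The sum of the other 15 H2A genes was 30.5 ± 0.515 CPM in UVB + sauchinone and 12.8 ± 0.969 CPM in UVB (SD, n = 3 each), a ratio of 2.38. With H2AC6 included, the class sum had a ratio of 1.27. H2AC18 had 7.82, 9.33 and 9.21 CPM in UVB + sauchinone, against 3.47, 3.01 and 3.18 CPM in UVB, with no overlap (log2 fold change 1.45 ± 0.17 SE, edgeR adjusted p = 2e-07). H2AC19 lies close to it on chromosome 1 and had 9.09, 8.73 and 9.51 CPM in UVB + sauchinone, against 4.48, 3.01 and 3.44 CPM in UVB (log2 fold change 1.32, edgeR adjusted p = 9.7e-07). These genes are near-identical copies: all 100-base windows of H2AC18 and 96.8% of those of H2AC19 occurred in another gene's transcripts, so how reads were split between them is uncertain.

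H2AC8 shares little sequence with other genes and had 123, 151 and 111 counts in UVB + sauchinone, against 38, 69 and 47 counts in UVB (log2 fold change 1.24 ± 0.22 SE, edgeR adjusted p = 5.8e-05). Every UVB + sauchinone library was above every UVB library. H2AC13 had 59, 55 and 68 counts in UVB + sauchinone, against 29, 27 and 28 counts in UVB (log2 fold change 1.03, edgeR adjusted p = 0.0019), with 57.7% of its windows shared, with H2AC14.

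H2AC17 had 29, 17 and 19 counts in UVB + sauchinone, against 10, 9 and 7 counts in UVB (log2 fold change 1.23, edgeR adjusted p = 0.023). It passed the filter through its sauchinone libraries, so its call is a description. It overlaps H3C12 on the same strand, and 84.0% of its windows are shared with that gene. It no longer passed when UVB + sauchinone replicate 1 (edgeR adjusted p = 0.15) or UVB replicate 3 (edgeR adjusted p = 0.087) was left out. H2AC11 and H2AC15 were not called (log2 fold changes 0.71 and 1.05, edgeR adjusted p = 0.082 and 0.10). H2AC11 ran from 0.39 without UVB replicate 3 (edgeR adjusted p = 0.34) to 0.97 without UVB replicate 1, where it was called (edgeR adjusted p = 0.038).

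H2B genes gave the largest class sum, 251 ± 18.3 CPM in UVB + sauchinone and 143 ± 8.80 CPM in UVB (SD, n = 3 each), and the highest ratio of the 5 class sums, 1.76. Of 11 tested, 9 were higher, against 24.7% over all tested genes. Among the 9, H2BC6, H2BC9 and H2BC18 passed the filter through their sauchinone libraries. H2BC11 (ENSG00000124635, chr6:27125897-27132795, minus strand), whose promoter is printed above, had 31.3, 37.7 and 35.1 CPM in UVB + sauchinone, against 13.8, 11.6 and 10.6 CPM in UVB. The lowest UVB + sauchinone library was far above the highest UVB library, and the log2 fold change of 1.53 ± 0.12 (SE) had the smallest p of any member (edgeR adjusted p = 3.2e-10).

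H2BC8 (ENSG00000273802, chr6:26216200-26216688, minus strand) had 11.6, 14.5 and 11.96 CPM in UVB + sauchinone, against 5.78, 3.94 and 5.30 CPM in UVB (log2 fold change 1.34 ± 0.16 SE, edgeR adjusted p = 3e-07). H2BC21 (ENSG00000184678, chr1:149884459-149886682, minus strand) had 79.7, 91.3 and 84.1 CPM in UVB + sauchinone, against 54.2, 51.9 and 45.5 CPM in UVB (log2 fold change 0.75 ± 0.09 SE, edgeR adjusted p = 3.3e-07). The groups were apart for both genes.

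H2BC12 had the highest mean FPKM among H2B genes, at 139 ± 5.59 FPKM in UVB + sauchinone and 85.1 ± 3.26 FPKM in UVB (SD, n = 3 each). Its CPM was 64.8, 71.4 and 66.8 in UVB + sauchinone, against 42.9, 44.6 and 41.1 in UVB (log2 fold change 0.66, edgeR adjusted p = 1.1e-06). H2BC5 had 18.2, 24.1 and 22.5 CPM in UVB + sauchinone, against 14.4, 12.5 and 11.5 CPM in UVB (log2 fold change 0.76, edgeR adjusted p = 2.8e-05). Neither gene's groups overlapped.

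Among the scarcer H2B genes, H2BC6 had 38, 46 and 28 counts in UVB + sauchinone, against 8, 11 and 7 counts in UVB (log2 fold change 2.01 ± 0.39 SE, edgeR adjusted p = 0.00017). H2BC18 had 30, 36 and 26 counts in UVB + sauchinone, against 15, 4 and 6 counts in UVB (log2 fold change 1.78, edgeR adjusted p = 0.0019). The estimate was 2.54 without UVB replicate 1. H2BC15 had 177, 168 and 164 counts in UVB + sauchinone, against 83, 98 and 82 counts in UVB (log2 fold change 0.87, edgeR adjusted p = 0.00013). The groups of these 3 genes did not overlap.

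H2BC9 had 25, 24 and 12 counts in UVB + sauchinone, against 9, 11 and 6 counts in UVB (log2 fold change 1.14, edgeR adjusted p = 0.043). Leaving out UVB + sauchinone replicate 1, UVB + sauchinone replicate 2, UVB replicate 1 or UVB replicate 3 raised its edgeR adjusted p to 0.17, 0.14, 0.081 or 0.16. H2BC4 and H2BC7 were not called (log2 fold changes 0.26 and 0.49, edgeR adjusted p = 0.073 and 0.39). H2BC4 had 14.6, 17.8 and 16.3 CPM in UVB + sauchinone, against 13.5, 12.8 and 14.4 CPM in UVB, so its groups lay close together without overlapping.

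H3 and H4 form the tetramer at the centre of the nucleosome, and both classes were low here. Summed H3 was 16.02 ± 0.910 CPM in UVB + sauchinone and 9.74 ± 0.647 CPM in UVB (SD, n = 3 each). Of the 3 tested H3 genes 2 were higher, against 24.7% over all tested genes. Of these 2, H3C2 passed the filter through its sauchinone libraries. H3C10, the H3 gene with the highest mean FPKM, had 8.82, 8.12 and 9.30 CPM in UVB + sauchinone, against 4.67, 4.54 and 5.03 CPM in UVB (log2 fold change 0.88 ± 0.15 SE, edgeR adjusted p = 4.8e-05). The groups were well apart.

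H3C2 had 21, 15 and 12 counts in UVB + sauchinone, against 6, 7 and 3 counts in UVB (log2 fold change 1.49, edgeR adjusted p = 0.019). It no longer passed when UVB + sauchinone replicate 1 (edgeR adjusted p = 0.11) or UVB replicate 3 (edgeR adjusted p = 0.10) was left out. H3C6, which carries the stem-loop with the single altered loop base shown above, had 5.38, 5.31 and 3.94 CPM in UVB + sauchinone, against 4.81, 3.57 and 4.11 CPM in UVB. Its groups overlapped, and the log2 fold change of 0.23 ± 0.19 (SE) was not called (edgeR adjusted p = 0.34).

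Summed H4 was 37.7 ± 3.98 CPM in UVB + sauchinone and 25.1 ± 1.17 CPM in UVB (SD, n = 3 each), and 4 of the 6 tested genes were higher (24.7% over all tested genes). Most of it was H4C8, with 24.4, 30.6 and 29.1 CPM in UVB + sauchinone, against 19.2, 19.2 and 21.01 CPM in UVB. The groups did not overlap, and the log2 fold change was 0.50 ± 0.11 (SE; edgeR adjusted p = 0.00049).

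H4C14 and H4C15 are near-identical copies on chromosome 1, with 100% and 90.8% of their windows shared. H4C14 had 48, 68 and 84 counts in UVB + sauchinone, against 43, 36 and 33 counts in UVB (log2 fold change 0.75, edgeR adjusted p = 0.019), and H4C15 had 44, 52 and 41 counts in UVB + sauchinone, against 17, 24 and 28 counts in UVB (log2 fold change 0.91, edgeR adjusted p = 0.014). Summed over both, which does not depend on how reads were split, the level was 4.90 ± 0.647 CPM in UVB + sauchinone and 2.79 ± 0.0983 CPM in UVB (SD, n = 3 each), a ratio of 1.76.

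Leaving out UVB + sauchinone replicate 3 or UVB replicate 3 raised the edgeR adjusted p of H4C14 to 0.12 or 0.066. For H4C15 it was 0.059 without UVB + sauchinone replicate 2 and 0.071 without UVB replicate 1. H4C3 had 15, 27 and 13 counts in UVB + sauchinone, against 10, 4 and 7 counts in UVB (log2 fold change 1.29, edgeR adjusted p = 0.033), and the call was lost without UVB + sauchinone replicate 2, UVB replicate 2 or UVB replicate 3 (edgeR adjusted p = 0.21, 0.13 and 0.080). H4C3 had also passed the filter through its sauchinone libraries. H4C5 and H4-16 were not called (log2 fold changes 0.76 and 0.40, edgeR adjusted p = 0.079 and 0.34), and H4C5 was called when at least 10 counts were asked of every library (edgeR adjusted p = 0.041).

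**Figure D2:**
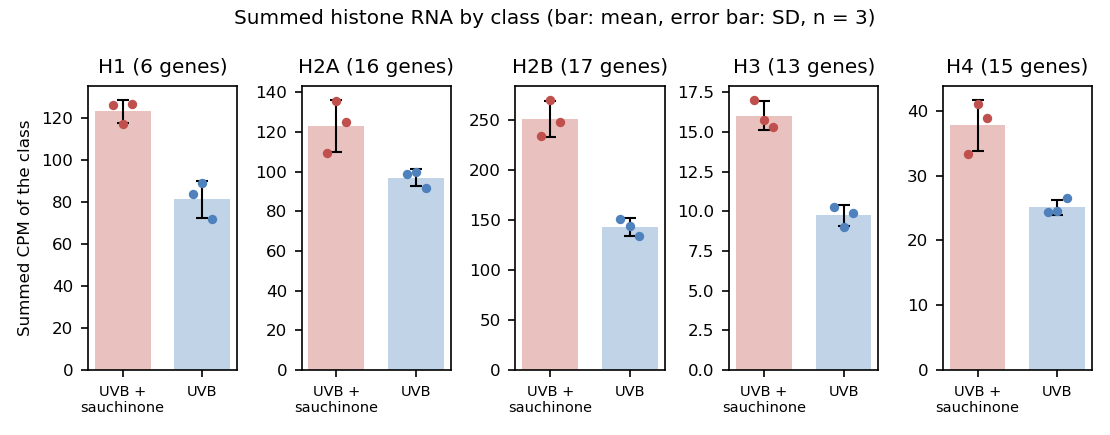
Summed level of each histone class (CPM), UVB + sauchinone to the left of UVB, with bars for the mean, error bars for the SD and points for the 3 libraries. The ratio was 1.76 for H2B, 1.65 for H3, 1.51 for H1, 1.5 for H4 and 1.27 for H2A, whose sum is mostly H2AC6.

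The 37 members that failed the filter had at most 17 counts in any library. In sum they had 143, 118 and 110 counts in UVB + sauchinone, against 42, 45 and 55 counts in UVB, so the summed groups did not overlap. Scaled to CPM, the sum was 5.43 ± 0.921 in UVB + sauchinone and 2.18 ± 0.218 in UVB (SD, n = 3 each). Of the 32 with any count, 28 had more raw counts over the UVB + sauchinone libraries than over the UVB libraries. H2AC21 and H3C14 had fewer, and H2AC12 and H2BC13 had equal counts. The same share among all genes that failed the filter was not determined, so the 28 are a description only. H3C1 had 10, 10 and 9 counts in UVB + sauchinone, against 2, 0 and 1 counts in UVB (named after its values were seen). H2AC1, H2BC1, H3C11, H4C7 and H4C13 were listed at 0 in all libraries.

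The members lie in 3 places in the genome. Chromosome 6 holds 55 of them between 25726063 and 27893891, in 3 stretches of 34, 5 and 16 genes. Of the tested genes there, 10 of 15 were higher in the first stretch, 2 of 3 in the second and 4 of 5 in the third. H1-4, H2BC6, H2BC9, H3C2 and H4C3 in the first stretch and H2AC17 in the third passed the filter through their sauchinone libraries. The cluster of 11 genes on chromosome 1 (149782689 to 149887965) had 6 tested genes, all higher, against 24.7% over all tested genes. Among them H2AC18 and H2AC19 are near-identical copies, as are H4C14 and H4C15, so the 6 calls are not independent. H4C14 and H4C15 also lost their calls in some alternatives, and H2BC18 passed the filter through its sauchinone libraries. Summed levels were 440 ± 22.9 CPM in UVB + sauchinone and 294 ± 14.6 CPM in UVB for chromosome 6 (ratio 1.5), and 110 ± 6.93 CPM in UVB + sauchinone and 60.7 ± 5.36 CPM in UVB for chromosome 1 (ratio 1.80; SD, n = 3 each). The difference between the clusters was not tested. The single member on chromosome 12, H4-16, was not called.

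**Figure D3:**
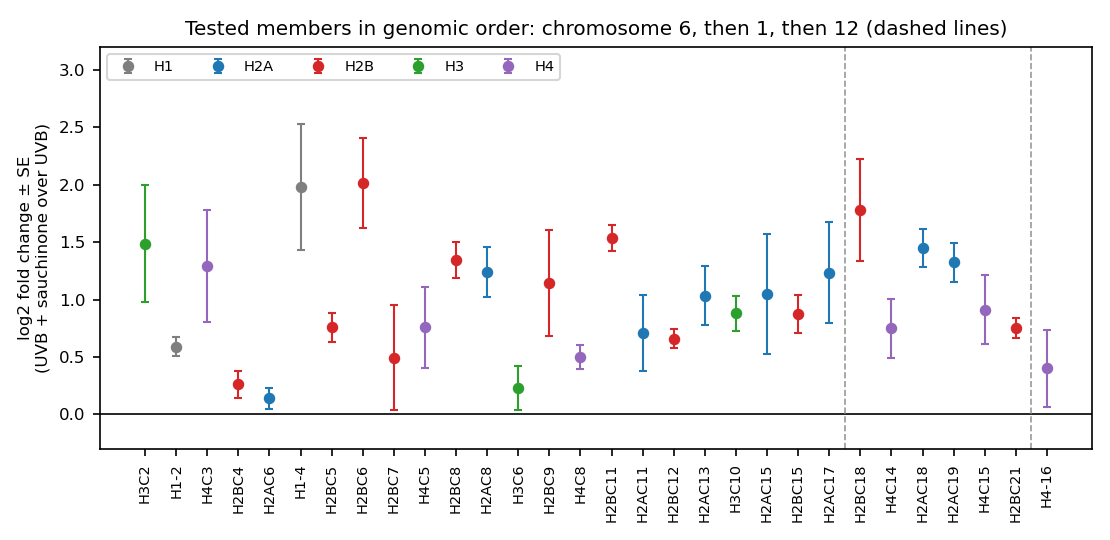
Log2 fold change with SE (UVB + sauchinone over UVB) of the 30 tested members in genomic order, coloured by class, with dashed lines between chromosomes 6, 1 and 12. All estimates lie above 0, and H2AC6, H2BC4 and H3C6 on chromosome 6 lie lowest.

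Many H2A and H2B genes are arranged head to head around a shared promoter region. The table holds 11 such pairs with starts 170 to 251 bases apart, and in 4 of them both genes were tested. H2BC8 and H2AC8, 233 bases apart, were both higher, with log2 fold changes of 1.34 and 1.24. H2BC4 and H2AC6, 219 bases apart, were both uncalled, at 0.26 and 0.14. In the other pairs only the H2B gene was called: H2BC11 had 1.53 and its partner H2AC11 0.71, and H2BC15 had 0.87 and its partner H2AC15 1.05, all as log2 fold changes. The printed H2BC8, H2BC11 and H2BC21 promoters lie within such shared stretches, the last with H2AC20, 236 bases away and too low to test.

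A list of 6 members is known from other work in cultured and differentiated cells to make polyadenylated RNA as well, namely H1-2, H2AC6, H2BC4, H2BC5, H2BC12 and H2BC21. Their summed level was 405 ± 22.0 CPM in UVB + sauchinone and 285 ± 18.0 CPM in UVB (SD, n = 3 each), a ratio of 1.42, and 4 of the 6 were called higher with a median log2 fold change of 0.62. The other 61 members summed to 146 ± 8.16 CPM in UVB + sauchinone and 71.3 ± 3.78 CPM in UVB (SD, n = 3 each), a ratio of 2.05. The difference between these ratios was not tested. The 61 also hold genes with annotated transcripts that have AATAAA near the end, among them H2BC11 and H4C8, the most abundant in CPM. The sums therefore do not separate polyadenylated from stem-loop RNA. Of the tested members annotated with more than 200 bases after the stem-loop, 10 of 16 were called higher. Of all tested members with a stem-loop in a transcript, 15 of 22 were. The share was 22 of 30 for all tested members and 24.7% for all tested genes. H2BC8 and H2BC9 are among the 16 but were counted on shorter models without the extension.

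Other RNAs that lack a poly(A) tail were also more abundant in sum, at 8.23 to 10.5 CPM in UVB + sauchinone and 4.77 to 5.69 CPM in UVB over the 30 genes listed. Only 5 had enough counts to be tested, and 10, among them RN7SK and RPPH1, were listed at 0 in all libraries. RN7SL1, the RNA of the signal recognition particle, had 88, 131 and 96 counts in UVB + sauchinone, against 44, 50 and 68 counts in UVB (log2 fold change 0.88, edgeR adjusted p = 0.0017). RNU5A-1, a U5 spliceosomal RNA, had 21, 14 and 19 counts in UVB + sauchinone, against 0, 4 and 3 counts in UVB (log2 fold change 2.81, edgeR adjusted p = 0.00065). SNORD3A, the U3 small nucleolar RNA, had 29, 39 and 23 counts in UVB + sauchinone, against 4, 18 and 8 counts in UVB (log2 fold change 1.51, edgeR adjusted p = 0.0068; 0.051 without UVB + sauchinone replicate 2). SNORD17 and SNORA73B were not called, which left 3 of 5 higher, against 24.7% over all tested genes. RNU5A-1 and SNORD3A passed the filter through their UVB + sauchinone libraries alone, so they had to differ. Their values are therefore a description. The part of RNA selection in the histone values was not tested.

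Fold changes also differed with gene size. Among tested genes other than members, those spanning under 2 kb of the genome were called higher in 19.7% and lower in 7.76% of 1121, with a median log2 fold change of 0.14. By exonic size under 1 kb, 13.0% of 847 were higher and 10.7% lower, with a median of 0.04. Exonic sizes of the members ran from 386 to 4265 bases. Members of at least 1 kb were called higher in 9 of 12 cases (median log2 fold change 0.81), and shorter ones in 13 of 18 (median 1.10).

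When each library was freed of a trend between counts and genomic span, 18 of the 22 called members were still called and the median log2 fold change of the tested members was 0.71. H2BC11 then had 1.32, H1-2 0.43 and H4C8 0.29 (edgeR adjusted p = 2.9e-09, 2e-04 and 0.033), and H2AC6 changed sign at −0.02 (edgeR adjusted p = 0.89). With the trend in GC content removed in place of span, 21 of the 22 were still called and the median was 0.84. H2AC6 and H2BC4 were then called higher as well (edgeR adjusted p = 0.0042 and 0.027). H2AC18, H2AC19 and H3C2, all still called, had no GC value, so no GC trend was removed for them.

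**Figure D4:**
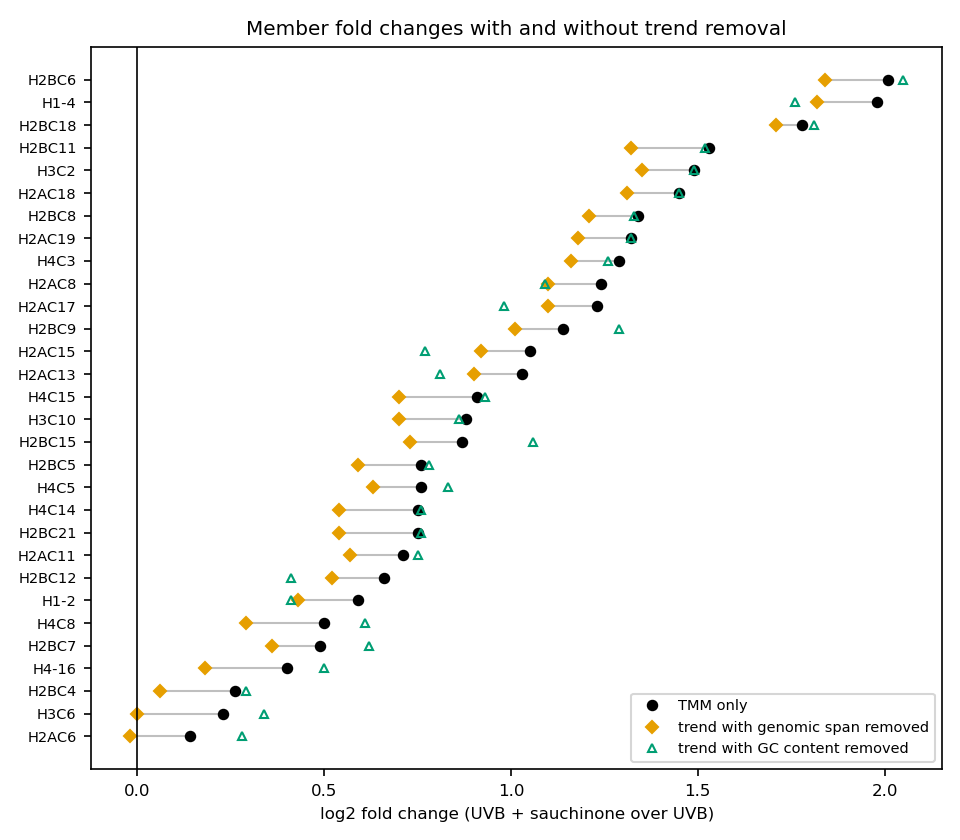
Log2 fold change (UVB + sauchinone over UVB) of each tested member with TMM scaling alone and after removing a trend with genomic span or with GC content. Removing the span trend moved the median of the members to 0.71 from 0.90, and H2AC6 then lay just below 0. H2AC18, H2AC19 and H3C2 had no GC value, so their GC points are uncorrected.

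Of the 28 genes listed for histone mRNA synthesis, 3′ processing and turnover, all were tested: 11 were higher, 8 lower and 9 not called, with a median log2 fold change of 0.15. SLBP, the stem-loop binding protein, had 61.3, 67.3 and 63.7 CPM in UVB + sauchinone, against 57.2, 58.2 and 52.3 CPM in UVB. The groups did not overlap, yet the log2 fold change of 0.20 ± 0.08 (SE) missed the threshold (edgeR adjusted p = 0.058). Over the alternatives the estimate ran from 0.05 to 0.24 and the adjusted p from 0.021 to 0.67. It was called without TMM scaling (0.021) and without UVB replicate 2 (0.042), and was 0.07 with the span trend removed (edgeR adjusted p = 0.50).

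NPAT had 22.9, 24.0 and 21.1 CPM in UVB + sauchinone, against 23.4, 21.1 and 33.6 CPM in UVB, so its groups overlapped and UVB replicate 3 stood above the rest. Its log2 fold change was −0.20 (edgeR adjusted p = 0.22), 0.02 without UVB replicate 3 (edgeR adjusted p = 0.87) and −0.34 without UVB replicate 2 (edgeR adjusted p = 0.023). CASP8AP2, also known as FLASH, which acts with SLBP and the U7 particle in histone mRNA cleavage, was lower (log2 fold change −0.44 ± 0.14 SE, edgeR adjusted p = 0.015). Its call was lost without UVB replicate 3 (log2 fold change −0.23, edgeR adjusted p = 0.14), without UVB + sauchinone replicate 1 or 3 (0.067 and 0.085) and with the GC trend removed (0.16).

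UPF1, the helicase that takes part in histone mRNA decay, averaged 164.5 ± 5.85 CPM in UVB + sauchinone and 91.3 ± 8.41 CPM in UVB (SD, n = 3 each; log2 fold change 0.85, edgeR adjusted p = 1.3e-08). Also higher were SRRT, a partner of the cap-binding complex (log2 fold change 0.80, edgeR adjusted p = 3.9e-08), CCNE1, the cyclin that activates CDK2 at the start of S phase (0.89, edgeR adjusted p = 7.7e-07), and ZNF473, a zinc finger protein of the U7 processing machinery (0.86, edgeR adjusted p = 8.5e-06). CPSF2, a subunit of the cleavage complex, was lower (log2 fold change −0.39, edgeR adjusted p = 0.00021), a call lost when the trend with exonic size was removed (edgeR adjusted p = 0.12).

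Of the 41 S phase and DNA replication genes tested, 7 were higher, 18 lower and 16 not called, with a median log2 fold change of −0.16. PCNA, the sliding clamp of replication and repair, was higher at 258 ± 28.1 CPM in UVB + sauchinone and 156 ± 5.04 CPM in UVB (SD, n = 3 each; log2 fold change 0.72, edgeR adjusted p = 1.2e-07). PRIM2, the large primase subunit, was lower at 23.1 ± 3.70 CPM in UVB + sauchinone and 81.8 ± 4.52 CPM in UVB (SD, n = 3 each; log2 fold change −1.82, edgeR adjusted p = 4e-12). POLA1, the catalytic subunit of DNA polymerase alpha, CCNA2, cyclin A2, and RRM1, a ribonucleotide reductase subunit, were also lower, with log2 fold changes of −1.86, −1.29 and −0.53 (edgeR adjusted p = 8.1e-09, 2.1e-08 and 3.7e-06). With the span trend removed, PRIM2 was at −0.945 and POLA1 at −1.02 on the log2 scale (edgeR adjusted p = 2.4e-08 and 3.1e-05).

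The replication-independent variants, most of which are made throughout the cycle from polyadenylated mRNA, held 6 higher and 2 lower genes of 11 tested, with a median log2 fold change of 0.26. H2AX, the variant phosphorylated at DNA breaks, whose mRNA can end either way, had 14.7, 14.3 and 12.3 CPM in UVB + sauchinone, against 6.07, 8.43 and 4.72 CPM in UVB (log2 fold change 1.10, edgeR adjusted p = 9.3e-06). H2AZ1 averaged 309 ± 18.7 CPM in UVB + sauchinone and 207 ± 22.7 CPM in UVB (SD, n = 3 each; log2 fold change 0.58, edgeR adjusted p = 3.1e-06). H3-3B and H3-3A, which both encode H3.3, had log2 fold changes of 0.40 and 0.35 (edgeR adjusted p = 9.6e-05 and 0.00082), and H3-3A was not called with the span trend removed (edgeR adjusted p = 0.091).

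Histone chaperones, which carry histones and place them on DNA, had 7 higher, 5 lower and 11 uncalled genes of 23 tested, with a median log2 fold change of −0.04. These shares, 30.4% higher and 21.7% lower, were near the 24.7% and 24.9% over all tested genes. ATRX, which with DAXX deposits H3.3, was lower (log2 fold change −1.44, edgeR adjusted p = 5.9e-10; −0.64 with the span trend removed, edgeR adjusted p = 1.9e-05), while DAXX was higher (0.39, edgeR adjusted p = 0.00042; 0.081 with the span trend removed). UBN1, a subunit of the HIRA complex for H3.3, and SPTY2D1, a histone H3 and H4 binding protein, were higher (log2 fold changes 1.10 and 0.88, edgeR adjusted p = 1.4e-09 and 7.3e-08). NAP1L1, a chaperone of H2A and H2B, was lower at −0.31 on the log2 scale (edgeR adjusted p = 0.00048), which was 0.01 with the trend in exonic size removed (edgeR adjusted p = 0.90). SUPT16H, a subunit of FACT, was not called (log2 fold change 0.13, edgeR adjusted p = 0.17; 0.002 with the GC trend removed).

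**Figure D5:**
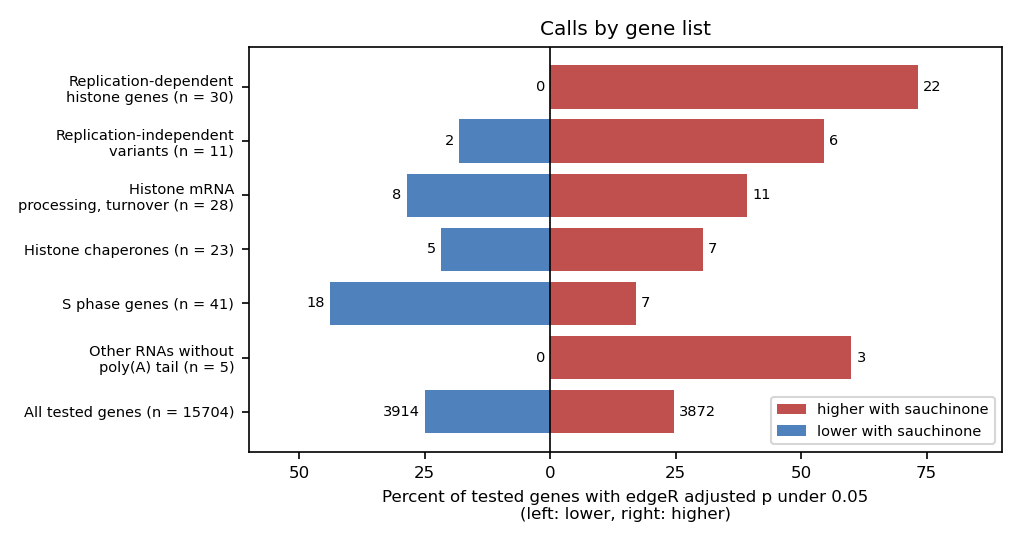
Percent of tested genes in each list called higher (to the right) or lower (to the left) with sauchinone by edgeR at an adjusted p under 0.05, with the number of genes beside each bar. Replication-dependent histone genes had 22 of 30 higher and none lower, against 24.7% higher and 24.9% lower over all 15704 tested genes.

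Some counts could take in reads of other genes. Of the 30 tested members, 25 overlap no other gene of the table, as do 17 of the 22 called. The 5 called members that do are H2AC17, H2BC18, H2BC5, H2BC6 and H4C8, and whether counting used strand is not given in the sources used here. Less than 10% of windows were shared with another gene for 23 tested members, 15 of them called.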

How the data were processed

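The authors deposited, for 61806 genes, raw counts per library and FPKM values, on GRCh38, according to the submitters' processing notes. Dividing each deposited count by exonic size and library total gave back the deposited FPKM in 100% of values (within 0.006), so FPKM served only for levels between genes. Which aligner, counter and strand setting were used is not given in the sources used here. The labels' protocols describe strand-specific construction by a dUTP method and paired-end reads.

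Counts were filtered with filterByExpr, scaled by TMM and tested in edgeR 4.0.16 (R 4.3.3; quasi-likelihood test, two-sided, Benjamini-Hochberg adjustment over all 15704 genes, threshold 0.05). Alternatives used DESeq2 1.42.0, limma-voom (limma 3.58.1), other scalings and filters, trends removed by offsets, a replicate block and each library left out. The GC trend was added after seeing the data. Every pair of libraries within a group differed by more than sampling noise (chi-square test of counts).

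Members and lists were chosen with earlier results of these data known. Named were every called member, every tested member not called, the member of highest mean FPKM in each class, SLBP, NPAT and CASP8AP2, and in each other list the 4 genes of smallest p and the 2 of highest mean CPM. Class sums are descriptions without a test. RefSeq promoters and GENCODE 29 transcripts, both on GRCh38, gave the sequences.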

Additional observations from a re-analysis of the deposited data

How the results depend on the processing

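Under the 19 alternatives, the number of tested members called higher was 16 to 23 and none was called lower. The number tested varied, most with the filter: 16 of 21 were higher with at least 10 counts in every library. It was 17 of 23 with at least 1 CPM in 3 libraries and 22 of 62 with at least 1 count in any library. Over all genes these filters gave 3684 of 13982, 3728 of 13704 and 3748 of 32724 higher. DESeq2 called 20 higher and limma-voom 21. Leaving out each library gave 18 to 22 members higher, and log2 ratios of summed counts of 0.51 to 0.66 for H1, 0.27 to 0.43 for H2A, 0.75 to 0.86 for H2B, 0.66 to 0.76 for H3 and 0.52 to 0.67 for H4. Of the 22 called members, 16 were called in every alternative that tested them. H2AC17, H2BC9, H3C2, H4C3, H4C14 and H4C15 were not, and each also lost its call without at least 1 library. Of the 8 tested members not called, H2AC6, H2AC11, H2BC4 and H4C5 were called in at least 1 alternative.

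The direction changed for H2AC6 with the span trend removed (log2 fold change −0.018, and −0.028 with the replicate block as well), for NAP1L1 with the trend in exonic size removed (0.012), for NPAT with the GC trend removed (0.045) and for SNORD17 without UVB replicate 1. With each library left out in turn, NPAT ran from −0.337 to 0.024 and SNORD17 from −0.328 to 0.020. The cause was not tested. For the 27 named genes that are not members, 491 of 510 values kept their direction and side of the threshold.

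The labels number the libraries of both groups from 1 to 3, but same-numbered libraries did not deviate together (r of 0.01, −0.11 and −0.05). A fit with the replicate number as a block called 20 members higher. Depth limits the 37 members that could not be tested, and reads of near-identical copies limit what a single member shows.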

Other observations

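Histone genes and pseudogenes outside the naming rule were looked at after the values were seen. H2AW, an H2A gene on chromosome 1, averaged 5.31 ± 0.107 CPM in UVB + sauchinone and 2.57 ± 0.613 CPM in UVB (SD, n = 3 each; log2 fold change 1.05, edgeR adjusted p = 0.00017). In the chromosome 1 cluster, H2BC20P averaged 17.0 ± 2.28 CPM in UVB + sauchinone and 9.19 ± 0.555 CPM in UVB (log2 fold change 0.89, edgeR adjusted p = 5.6e-06), and H2BC19P averaged 5.50 ± 0.596 CPM in UVB + sauchinone and 2.35 ± 0.703 CPM in UVB (log2 fold change 1.22, edgeR adjusted p = 6.8e-05). H3-7 was also higher (log2 fold change 0.71, edgeR adjusted p = 0.001). H2BP1, H2BP2, H3P16 and H3P6 were not called. Pseudogenes can share reads with the genes they resemble, and the part of this in their values was not tested.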
